A study of Saccharomyces cerevisiae with 59 samples.

Results

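Of the 1453 convergent neighbouring gene pairs of budding yeast in these data, 900 had overlapping transcripts, and they are the subject of the results below. Genes were sorted by start position on each chromosome. A pair was kept when a gene on the + strand was followed by a gene on the - strand. The polyadenylation site (PAS) of the + gene also had to lie beyond that of the - gene. By these positions both transcripts covered some of the same DNA, at their 3′ ends in pairs where neither gene lay inside the other. The 900 pairs held 1800 of the 5590 genes listed. The other 553 convergent pairs had no overlap by the deposited PAS, and all 5574 neighbouring pairs, whatever their orientation, gave the background. The choice used positions and strands only and no measured value.

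The cells were haploid MATa yeast of the W303 background, and every sample carried the insertions URA3::BrdU-Inc and BAR1::TRP and the alleles ade2-1, can1-100 and his3-11,15 and a mutant allele of leu2. They were grown in YPD at 30 °C and held in G1 phase for 2 h with 50 ng/mL of the mating pheromone α-factor, and the arrested sample is the 0 min time point. After release into fresh medium, samples followed at intervals of 10 min, and the aligned times used here run to 140 min, about 2 cell cycles. The experiment comprised 30 MNase-seq libraries, which show the DNA protected by nucleosomes, and 29 total RNA-seq libraries, in 2 biological replicates. The authors aligned the replicates by cell-cycle progression and merged them, so each value below is the authors' merged value for 1 of 15 time points. RNA at 110 min rests on 1 library, and the labels of 1 MNase-seq library at 10 min conflict on whether it was taken before release. No spread between replicates could be computed, and all comparisons are descriptions of these merged values. Each library pools many cells, so that fewer cells of a phase and less RNA per cell cannot be told apart.

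At the end of a yeast gene, the new RNA is cut at the PAS and given a poly(A) tail, after which RNA polymerase II leaves the DNA. Yeast genes lie close together, and the 3′ ends of convergent genes often share DNA, so that the end of each RNA is antisense to the end of the other. Polymerases that meet head-on cannot pass each other, and the regions between convergent genes are also known as places where cohesin gathers on the chromosome arms. Signals for the position of the 3′ end in yeast are rich in A and T, and include a UA-rich efficiency element, for which TATATA is the best known form in DNA letters, and an A-rich positioning element that resembles AATAAA.

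Most overlaps were short. Their length, taken as the difference of the PAS positions, ran from 1 to 2042 bases with a median of 90.5. The middle 50% of the pairs lay between 68 and 120 bases. There were 141 pairs with an overlap under 50 bases, 637 from 50 to under 150, 107 from 150 to under 300 and 15 with 300 or more. Just inside the limit, 50 pairs overlapped by 1 to 10 bases, and just outside it, 36 convergent pairs had PAS that were 0 to 10 bases apart without overlap. In 454 pairs a PAS lay inside or past the partner's coding region, including 114 pairs in which this held for both genes. In the other 446 pairs the overlap stayed between the coding regions. The coding regions themselves overlapped in 15 pairs. The gap between coding regions had a median of 165 bases in overlapping pairs and 369 bases in convergent pairs without overlap. Overlapping pairs were found on all 16 nuclear chromosomes, where they made up between 44.9% of the convergent pairs (31 of 69 on chromosome V) and 78.7% (48 of 61 on chromosome VIII).

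The overlaps of 6 pairs that return in the results are short enough to be read whole. The sequences are from the R64 genome, the build used by the authors, in the RefSeq copy. Each line gives the + strand, so that it reads 5′ to 3′ for the + gene, which is named first. The capitals run from the PAS of the - gene to the PAS of the + gene, both included. They hold 1 base more than the overlap lengths given in the text, which are the difference of the PAS positions. The tables do not state whether a PAS is counted from 0 or from 1, so the capitals may be shifted by 1 base. The intervals are chrVII:1014197-1014226, chrXV:266201-266230, chrIX:423684-423713, chrII:237064-237093, chrVI:84121-84150 and chrXIV:575387-575416, in the order of the lines.
TNA1/APL6: catgaaactttGTTTACCaacttctctttt
OPI10/SIL1: tcacgaaatattAATTGaaaaaaatattat
HYR1/GTT1: actCGCTAGTCAAACCTGTCAATTATTatg
HTB2/ECM15: gggaaagatattttGCaaacagttattatt
STE2/BST1: atcttttttTACTGGGTTGTagttctaatg
SIW14/HHT2: cttCGAAAATGATGTTTATTGATAATTatt
Apart from the last 6 bases of the STE2 and BST1 line, which are the end of the BST1 coding region, all 6 intervals lie between the coding regions.

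The sequence before the PAS was searched for both elements, in the 100 bases before the PAS on the strand of the gene. TATATA was found for 51.8% of members (915 of 1765 with a PAS beyond the coding end), against 40.5% of convergent genes without overlap and 46.1% of all genes. AATAAA was found for 21.5%, against 22.5% and 20.3%. The share of A and T was alike, with medians of 73% in members, 73% in convergent genes without overlap and 72% in all genes. TATATA reads the same on both strands, and the windows of overlapping partners share DNA. A single TATATA lay in the windows of both partners in 365 of the 900 pairs (40.6%), and the 2 partners are thus not separate cases. DOT5 and EST3 show this on chromosome IX at 335665 to 335694, where the same 6 bases, in capitals, precede the PAS of both genes. Counted from the first base of the motif through the PAS, the distance is 32 bases for DOT5 and 58 bases for EST3. The EST3 coding region, 335666 to 336212, holds these 6 bases and all of the interval except its first position. The 2 lines are the same DNA, read 5′ to 3′ along each gene.
DOT5: gtcataaatattTATATAcaaatgggaaag
EST3: ctttcccatttgTATATAaatatttatgac
The pair YDR119W-A and TRM1 on chromosome IV shares a longer TA run, here at 691383 to 691412 on the + strand and at 691377 to 691406 on the - strand.
YDR119W-A: ctcaaatatataTATATAtttatttatttt
TRM1: aataaatatataTATATAtttgaggaacca
A match is a description of these letters, not of a site in use.

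The strain and the time course behaved as the labels say. The MATa genes MFA1, MFA2 and STE2 had RNA values of at least 230 at every time point, whereas STE3, MF(ALPHA)1 and MF(ALPHA)2, the genes of the other mating type, stayed at or below 2.18. RNA values are those the authors named TPM, a unit scaled by gene length, used here as deposited. Their totals per time point lay between 949828 and 1041385. Marker lists peaked in the order pheromone response at 0 min, G1/S at 10 min, core histones at 20 min, G2/M at 40 min and M/G1 at 60 min.

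The RNA of overlapping partners did not follow a common direction. Over the 15 time points, the Pearson correlation (r) of the partners' log2(value + 1) had a median of 0.10, and the middle 50% of pairs lay between -0.30 and 0.50. In 226 pairs (25.1%) r was above 0.5, against 29.2% of all neighbouring pairs, and in 128 pairs (14.2%) it was below -0.5, against 12.9%. This excess of high over low r depended on the scaling. With each time point scaled to its upper quartile, the median was 0.018 in overlapping pairs and 0.14 in all neighbouring pairs, 20.0% of overlapping pairs lay above 0.5, against 26.8%, and 20.4% lay below -0.5, against 15.7%. As deposited, 505 pairs (56.1%) had an r above 0, against 61.6%. Convergent pairs without overlap were similar, with a median of 0.066, 22.1% above 0.5 and 15.4% below -0.5 (551 pairs in which both genes varied). Divergent pairs, which share an upstream region, had a median of 0.32, and tandem pairs 0.17.

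Part of each r is a course that all genes share. When the median course of all genes was subtracted, the median r of overlapping pairs was -0.019, with 174 pairs (19.3%) above 0.5, against 26.5% of all neighbouring pairs, and 196 pairs (21.8%) below -0.5, against 16.2%. An r above 0 was left in 436 pairs (48.4%), against 57.3%. Convergent pairs without overlap then had a median of 0.062, with 21.5% above 0.5 and 18.6% below -0.5. The arrest at 0 min also weighed on r. Over 10 to 140 min only, the median was 0.19 in overlapping pairs and 0.11 in convergent pairs without overlap, and the sign of r changed in 183 of the 900 pairs. Of the 128 pairs below -0.5, 63 stayed below it without 0 min, and of the 226 pairs above 0.5, 163 stayed above it. The time points of a pair come from the same libraries and follow each other in time, and r is given as a description.

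**Figure D1:**
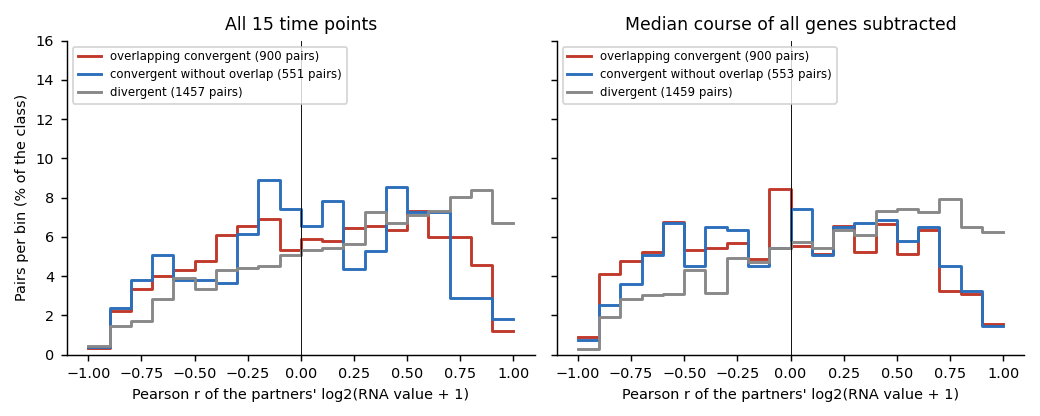
Distribution of Pearson r between the RNA of neighbouring genes over 15 time points (left) and after the median course of all genes was subtracted (right). The x axis is r in bins of 0.1 and the y axis the percent of pairs of a class. Overlapping convergent pairs (red, 900 pairs, medians 0.10 and -0.019) lie close to convergent pairs without overlap (blue, medians 0.066 and 0.062), and divergent pairs (grey) lie further to the right, with medians of 0.32 and 0.29.

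Up to under 300 bases, the median r was lower at longer overlap, and the 15 pairs with the longest overlaps broke this order. The median r was 0.15 for overlaps under 50 bases, 0.10 from 50 to under 150, 0.019 from 150 to under 300 and 0.22 for the 15 pairs with 300 or more, and Spearman's rho between overlap and r across the pairs was -0.021. The share of pairs above 0.5 was 30.5%, 25.4%, 15.9% and 26.7% in the same order. Below -0.5 it was 12.8%, 14.1%, 17.8% and 6.67%. With the median course of all genes subtracted, the medians were 0.031, -0.033, -0.015 and -0.066, without such an order. Pairs with a PAS inside or past the partner's coding region had a median r of 0.084, and pairs with neither had 0.12.

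The ratio of the higher to the lower mean RNA, with 1 added to each mean, had a median of 2.58-fold in overlapping pairs, against 3.81-fold in convergent pairs without overlap and 3.09-fold in all neighbouring pairs. The partners differed by over 10-fold in 127 overlapping pairs (14.1%), against 166 convergent pairs without overlap (30.0%) and 21.5% of all neighbouring pairs. The groups also differed in weakly expressed genes, since 108 of 1800 members and 154 of 1106 convergent genes without overlap had a mean under 10. Median levels were 43.1 in members, 47.8 in convergent genes without overlap and 42.6 in all genes. In the 446 pairs whose PAS stayed outside both coding regions, 17.7% differed by over 10-fold. Whether the counting of reads used the strand is not given in the sources used here, although the library kit was a stranded one.

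In the 15 pairs whose coding regions overlapped, the partners' means differed by between 1.15-fold and 284-fold, with a median of 10.9-fold, and by over 10-fold in 9 pairs. VPS5, which encodes a subunit of the retromer that returns proteins from endosomes, and VAM10 on chromosome XV had the longest overlap, 2042 bases, with the VAM10 coding region inside that of VPS5. VPS5 had RNA values from 32.7 to 58.7 with a median of 35.5, and VAM10 had values from 0 to 0.288 with a median of 0.124. This was the 284-fold difference. At the other end, VPS38 and DCR2, which overlap by 480 bases, had means of 29.7 and 34.2. The next longest overlaps were those of YGR031W and NAG1 on chromosome VII, 955 bases with means of 39.2 and 0.580, and of YJR079W and AIM24 on chromosome X, 950 bases with means of 4.09 and 51.5. The coding region of NAG1 lies inside that of YGR031W, and those of YJR079W and AIM24 overlap in part. How reads in shared bases were assigned was not tested. In each of the 3 pairs with the longest overlap, the PAS of 1 gene is written in the table as the same number as its coding end, which may be a placeholder. The same number was found in 33 of the 900 pairs. Of the members, 1765 of 1800 had a PAS beyond the coding end, against 978 of 1106 convergent genes without overlap. Where a PAS is a placeholder, overlap is unknown. The group without overlap, also in the comparison of levels above, may thus hold some overlapping pairs.

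In 80 pairs both genes had a mean of at least 10 and a range of at least 2-fold. Among these, the partners in the 4 pairs with the lowest r moved in opposite directions. TNA1, the high-affinity carrier of nicotinic acid, and APL6, a subunit of the AP-3 adaptor of vesicle transport, lie on chromosome VII with coding regions at 1012485 to 1014089 and 1014321 to 1016750. Their transcripts overlapped by 6 bases. TNA1 had its lowest value, 65.1, at 0 min and then 82.2, 82.4, 91.2, 87.6, 92.2, 98.4, 102, 118, 126, 127, 133, 119, 116 and 114 from 10 to 140 min. APL6 had its highest value, 133, at 0 min and then 102, 96.0, 85.3, 78.4, 77.0, 74.3, 71.8, 70.4, 68.5, 67.4, 65.3, 69.3, 70.0 and 68.6. TNA1 was thus highest and APL6 lowest at the same time point, 110 min, where RNA rests on 1 library. Their r was -0.93, and -0.90 without 0 min.

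In the other 3 pairs of low r, 1 gene had its lowest and its partner its highest value at 0 min. YTM1, a factor of large ribosomal subunit assembly, had an RNA value of 49.0 at 0 min and between 97.0 and 183 afterwards. TPO4, a polyamine transporter, had 48.4 at 0 min and between 13.95 and 21.6 afterwards. The values of the 2 genes were almost equal in arrested cells and were 166 and 19.4 at 10 min, with r = -0.86 over all time points and -0.49 without 0 min. REV1, a DNA polymerase of translesion synthesis, had 10.5 at 0 min, a median of 23.3 and a highest value of 29.9 at 50 min. PYK2, a pyruvate kinase, had 140 at 0 min, a median of 24.8 and a lowest value of 19.5 at 100 min. This pair had r = -0.85, and -0.61 without 0 min. In the pair with the shared TA run, YDR119W-A had 63.6 at 0 min, a lowest value of 15.8 at 40 min and 43.9 at 140 min, whereas TRM1, a tRNA methyltransferase, had 30.7 at 0 min, a highest value of 103 at 70 min and 63.0 at 140 min. Here r was -0.85, and -0.80 without 0 min, because the opposite movement returned at the end of the course.

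The 4 pairs with the highest r moved together. DOT5, a nuclear thiol peroxidase, had its highest value at 0 min, 247, a median of 84.2 and a lowest value of 70.5 at 60 min. EST3, a subunit of telomerase, had 59.0 at 0 min, a median of 26.1 and a lowest value of 21.9, also at 60 min. With r = 0.98, and 0.95 without 0 min, they had the highest r among the 80 pairs. HYR1, a peroxidase that senses peroxide, had 457 at 0 min and a lowest value of 146 at 60 min, and GTT1, a glutathione transferase, had 183 at 0 min and a lowest value of 31.3 at 100 min, with r = 0.93. OPI10 had 61.4 at 0 min and its lowest value, 20.8, at 60 min, and SIL1, an exchange factor for the chaperone of the endoplasmic reticulum, had 137 at 0 min and 54.3 at 60 min. Their overlap of 4 bases is among the shortest, and r was 0.94. GRC3 and RIX7, both needed for ribosome biogenesis, moved the other way. GRC3 had its lowest value, 21.3, at 0 min and 40.8 at 10 min, and RIX7 had 27.1 at 0 min and 87.7 at 10 min, with r = 0.93 over an overlap of 232 bases. Among the 80 pairs as a whole, 26 had an r above 0.5, 19 had an r below -0.5, and the median was 0.11.

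**Figure D2:**
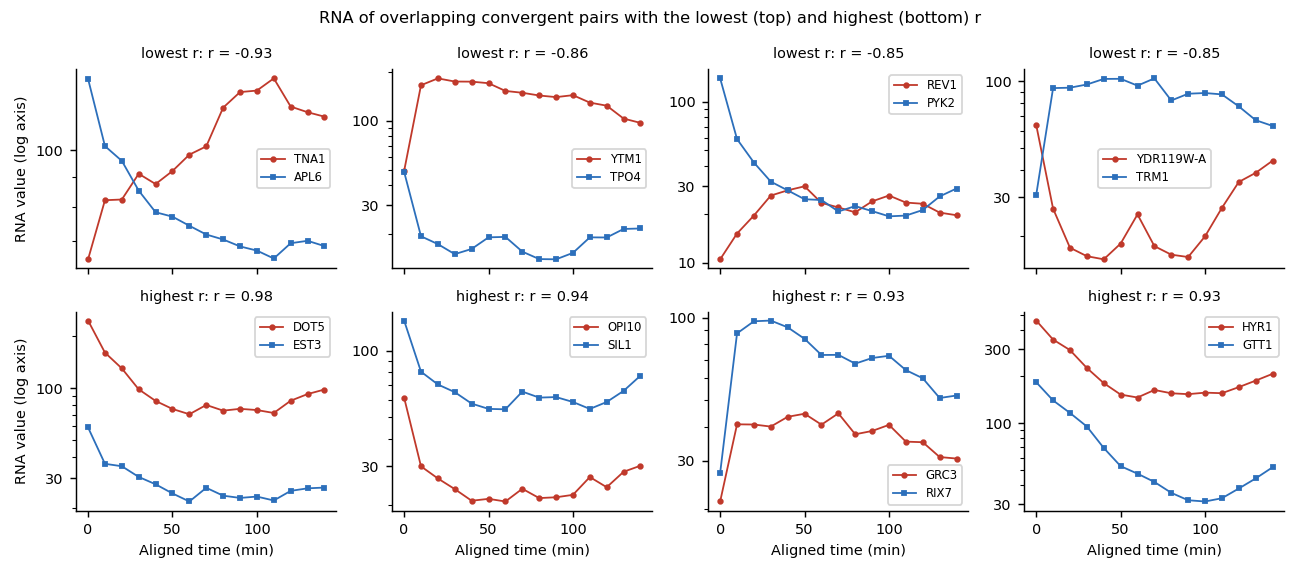
RNA values (log axis) of the 4 overlapping pairs with the lowest r (top) and the 4 with the highest r (bottom) against aligned time in min, with the + gene in red and the - gene in blue. In the top row the partners move in opposite directions between 0 and 10 min, as for YTM1 (49.0 and 166) and TPO4 (48.4 and 19.4), and in the bottom row they move in the same direction.

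In arrested cells, 155 members (8.61%) had RNA at least 2-fold above the mean of the other 14 time points, on the log2(value + 1) scale, against 10% of all genes, and 145 (8.06%) were at least 2-fold below it, against 8.25%. Partners moved in opposite directions in 19 pairs (2.11%), against 1.69% of all neighbouring pairs. Both were higher in 7 pairs (0.778%), against 1.67%, and both lower in 2 pairs (0.222%), against 1.11%. In 244 pairs (27.1%) 1 partner passed 2-fold, against 27.5% of all neighbouring pairs, and in 628 (69.8%) neither did, against 68.0%. Divergent pairs had 13 of 1459 (0.891%) in opposite directions, and convergent pairs without overlap had 11 of 553 (1.99%).

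The widest opposite change at the arrest was in TGS1 and PRM4. TGS1, which methylates the cap of small nuclear RNAs, was lower at 0 min by a log2 ratio of -2.39, and PRM4, a pheromone-regulated gene, was higher by 3.32, over an overlap of 132 bases. Among the other opposite pairs, NOP14, a factor of small ribosomal subunit assembly (-1.14), faced the autophagy gene ATG9 (1.09). RLP24, a factor of large subunit assembly (-1.33), faced the telomere gene TEN1 (1.00), and UTP8, which acts in tRNA export (-1.05), faced YGR127W (1.02). SPO12, a regulator of mitotic exit (1.13), faced the meiotic gene SPO16 (-2.58), and SAM2, an S-adenosylmethionine synthetase (1.07), faced PLM2 (-1.28). The 7 pairs in which both genes were higher were DDR48 and PAI3, DOT5 and EST3, HYR1 and GTT1, MIP6 and YSC84, OPI10 and SIL1, YML131W and ERO1, and YMR196W and VTI1. The 2 pairs in which both were lower were IMP3 and SKG6, and SGO1 and CDC21. After release, 298 members (16.6%) ranged over 2-fold or more, against 20% of all genes, and in 34 pairs (3.78%) both partners ranged so far, against 5.60% of all neighbouring pairs, with a median r of 0.15. Of the 298 members, 167 (56.0%) had their highest value of 10 to 140 min at 10 min, against 49.9% of all genes with such a range. With a pseudocount of 10 in place of 1, 5.17% of members, against 5.21% of all genes, were 2-fold lower at 0 min, and 10.1%, against 12.1%, ranged over 2-fold after release.

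There were 10 pairs with a gene of the phase marker lists, and the first 6 along the genome show how such a gene moved beside its partner. FUS1, which acts in cell fusion during mating, had RNA values of 516 at 0 min, 105 at 10 min and 34.5 at 140 min. HBN1, its partner across 89 bases on chromosome III, had 10.0 at 0 min, 27.8 at 10 min, 9.61 at 50 min and 30.7 at 140 min. HBN1 was thus low in arrested cells, but as low between 50 and 70 min, when FUS1 was at 61.3 to 67.0, and r was -0.29. FIG2, an adhesin of mating cells, had 670 at 0 min, 354 at 10 min and 96.0 at 140 min. Its partner YCR090C, across 74 bases on the same chromosome, had 13.3 at 0 min, 49.4 at 10 min, 108 at 70 min and 92.1 at 140 min. FIG2 had its highest and YCR090C its lowest value in arrested cells, and r was -0.77, with -0.68 without 0 min. STE2, the α-factor receptor, had 1650 at 0 min and 230 to 469 afterwards, and BST1, an enzyme of GPI anchors on the other side of a 10-base overlap, had 19.2 at 0 min and 21.3 to 37.5 afterwards. For this pair r was -0.48, and -0.093 without 0 min.

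The cell-cycle genes of these pairs moved without a matching swing of the partner. SWI5, a transcription factor of late mitosis, had RNA values of 2.97 at 10 min, 63.4 at 40 min, 16.2 at 80 min and 51.1 at 110 min, while TAF12, a subunit of TFIID and SAGA, stayed between 56.3 and 73.0. BUD4, which marks the axial bud site, had 3.57 at 0 min, 68.3 at 40 min, 21.6 at 80 min and 50.4 at 100 min, while FIP1, a subunit of the cleavage and polyadenylation factor, stayed between 23.1 and 34.0. In both pairs the small movements of the steady gene ran against those of the cycling gene after release. Over 10 to 140 min, r was -0.72 for TAF12 and SWI5 and -0.63 for BUD4 and FIP1. Over all time points, r was -0.56 and -0.46 in the same order. With the median course of all genes subtracted, these values became 0.12 and -0.094. The opposite movement over all time points was thus weak or absent apart from the shared course. HTB2, a histone H2B gene with a near-identical copy elsewhere that makes its reads uncertain, had 31.8 at 0 min, 1401 at 20 min, 214 at 60 min and 1202 at 80 min, while ECM15, with an overlap of 1 base, had 618 at 0 min, 689 at 10 min and 292 at 120 min. For HTB2 and ECM15 r was -0.25, and 0.086 without 0 min.

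Of the other 4 marker pairs, 2 had a negative r and 2 a positive one. EGT2, which acts in cell separation, and PFA3, a palmitoyltransferase, had r = -0.61. SIW14, an inositol pyrophosphate phosphatase, and the histone H3 gene HHT2 had -0.38. The histone H4 gene HHF2 and KTR5, a mannosyltransferase, had 0.18, but -0.75 over 10 to 140 min. SGO1, the guardian of centromeric cohesion, and CDC21, thymidylate synthase, had 0.43. Reads of HHT2 and HHF2 are uncertain for the same reason as those of HTB2.

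**Figure D3:**
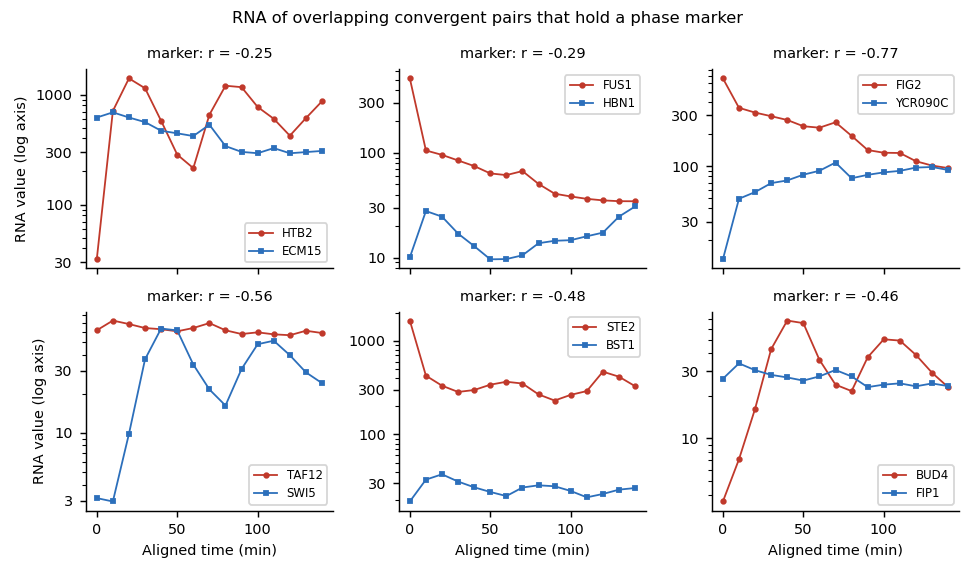
RNA values (log axis) of 6 overlapping pairs that hold a phase marker, against aligned time in min, with the + gene in red and the - gene in blue. The mating genes FUS1, FIG2 and STE2 are highest at 0 min (516, 670 and 1650), SWI5 and BUD4 peak at 40 min (63.4 and 68.3) beside steady partners, and HTB2 peaks at 20 and 80 min (1401 and 1202).

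Nucleosomes of the members were followed through the gene-body entropy, the Shannon entropy of the nucleosome score along a window of the gene, which is high when nucleosomes are spread and low when they are well placed. Each gene's entropy was standardized over its 15 time points. The median z-score of members was -1.36 at 0 min, 0.73 at 20 min, 1.31 at 30 min, -0.73 at 60 min, 0.78 at 90 min and -0.52 at 120 min. Entropy was thus highest in S phase of both cycles. In the first cycle, the mean z-score at 20 and 30 min, in S phase, minus that at 0, 10, 50 and 60 min had a median of 1.63 and was above 0 for 1743 members (96.8%), against 95.1% of all genes. The same difference one cycle later, of 80 and 90 min minus 70, 110, 120 and 130 min, had a median of 1.04 and was above 0 for 1699 members (94.4%), against 91.6%. Convergent genes without overlap had medians of 1.53 and 0.98. Only 21 members (1.17%) had lower entropy in S phase in both cycles, against 1.97% of all genes. In 771 pairs (85.7%) both genes had higher entropy in S phase of both cycles, against 79.3% of all neighbouring pairs. The highest entropy of 1118 members (62.1%) fell at 20 or 30 min, against 58.4%.

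Levels of the chromatin measures were near those of other genes. Median entropy was 5.78 in members and 5.80 in all genes. The nucleosome score, which measures how strongly fragments match a model nucleosome, had a median of 0.0531 in members, 0.0490 in convergent genes without overlap and 0.0493 in all genes. The promoter subnucleosome score, from small fragments at the promoter, had medians of 0.0221, 0.0255 and 0.0231 in the same order.

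The entropy of partners followed each other mainly through the course of all genes. The median r between the entropies of overlapping partners was 0.51, against 0.43 in convergent pairs without overlap and 0.49 in all neighbouring pairs. With the median course of all genes subtracted it was 0.12 in overlapping pairs and 0.10 in convergent pairs without overlap. Then 137 overlapping pairs (15.2%) had an r above 0.5, against 17.7% of all neighbouring pairs, and 553 (61.4%) were above 0, against 64.1%. For the nucleosome score the median was 0.052, with 13.4% of overlapping pairs above 0.5, against 14.6% of all neighbouring pairs, and 56.0% above 0, against 55.7%. For the promoter score it was 0.0020, with 11.0% above 0.5, against 26.2%, and 50.3% above 0, against 61.3%. The promoters of convergent genes lie at opposite ends of the pair, whereas those of divergent genes are adjacent, and divergent pairs had a median promoter score r of 0.71. The change of the entropy z-score between 20 and 30 min had a Spearman's rho of 0.37 across the overlapping pairs, against 0.33 in convergent pairs without overlap.

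A gene's RNA was more closely related to its own gene-body entropy than to its partner's. Among the 580 members whose RNA ranged over 2-fold or more across the 15 time points, the r between RNA and own entropy, with common courses subtracted, had a median of 0.38 and was above 0 for 430 genes (74.1%), against 0.37 and 73.2% of the 2004 such genes in the whole table. Without 0 min the median was 0.22 in members and 0.21 in all such genes. With the partner's entropy the median was 0.017, and 298 genes (51.4%) were above 0. An r above 0.5 was reached by 236 members (40.7%) with their own entropy and by 70 (12.1%) with the partner's. Convergent genes without overlap had medians of 0.39 and 0.022 (396 genes), with 74.0% and 51.8% above 0 and 39.9% and 11.9% above 0.5. Among the 122 members with a range of 4-fold or more the medians were 0.60 with own entropy and 0.064 with the partner's.

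**Figure D4:**
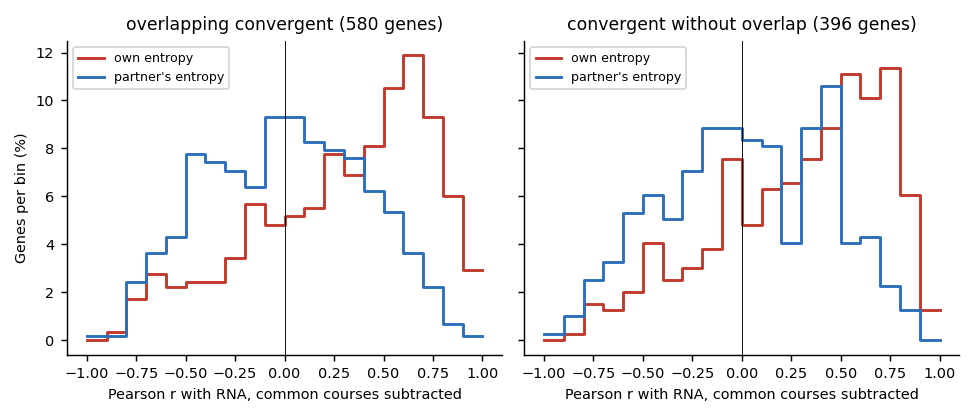
Pearson r over 15 time points between a gene's RNA and its own gene-body entropy (red) or the entropy of its convergent partner (blue), with common courses subtracted, in percent of genes per bin of 0.1. The left panel holds 580 members of overlapping pairs (medians 0.38 and 0.017) and the right panel 396 convergent genes without overlap (medians 0.39 and 0.022). In both panels own entropy lies to the right of the partner's.

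The chromatin of the 3 pairs with a mating gene is given here as an example. The entropy of FUS1 was 6.05 at 0 min, its highest value, and 5.58 at 60 min, its lowest, and that of HBN1 was 6.07 at 0 min, also its highest, and 5.82 at 60 min. Their entropies had r = 0.92, and 0.95 with the common course subtracted, although the median gene had its lowest entropy at 0 min. FUS1 had a nucleosome score of 0.02501 at 0 min and 0.0595 to 0.0811 afterwards, and HBN1 had 0.0366 at 0 min and 0.0422 to 0.0515 afterwards. Both genes of the pair thus had their lowest nucleosome score at 0 min, when the RNA of FUS1 was 516 and that of HBN1 10.0.

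FIG2 and YCR090C also both had their lowest nucleosome score at 0 min. FIG2 had a score of 0.0826 at 0 min and 0.156 to 0.196 afterwards, and YCR090C had 0.0263 at 0 min and 0.0492 to 0.0574 afterwards, with r = 0.94 after the common course was subtracted. YCR090C lies at 272315 to 272863 on chromosome III, and its RNA was lowest, not highest, in arrested cells. Its entropy at 0 min was 5.92, and that of FIG2 was 6.17. STE2 and BST1 differed in this. STE2 had a nucleosome score of 0.0411 at 0 min and 0.0542 to 0.0688 afterwards, whereas BST1 had 0.0896 at 0 min and 0.0808 to 0.0976 afterwards.

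**Figure D5:**
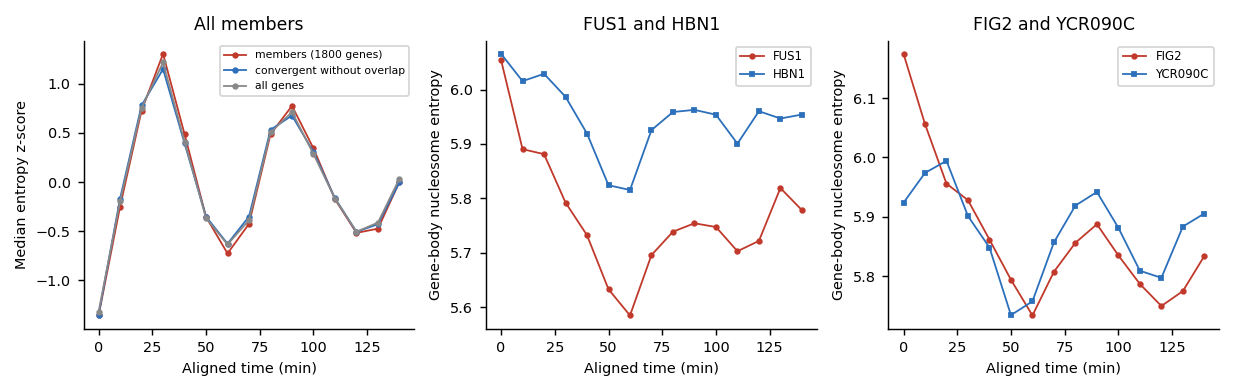
Gene-body nucleosome entropy against aligned time in min. The left panel gives the median z-score of 1800 members (red), convergent genes without overlap (blue) and all genes (grey), which are highest at 30 and 90 min, with members at 1.31 and 0.78. The middle and right panels give the entropy of FUS1 and HBN1 and of FIG2 and YCR090C, where FUS1 (6.05), HBN1 (6.07) and FIG2 (6.17) have their highest values at 0 min.

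Across the members, a lower nucleosome score at 0 min was found with and without such a partner. After the values of these pairs were seen, the members that did not pass 2-fold at 0 min themselves were grouped by the RNA of their partner. Their nucleosome score at 0 min was compared with the mean of the other time points. It was lower in 45.9% of the 122 with a partner at least 2-fold higher in arrested cells. The share was 40.8% of the 1256 with a partner within 2-fold and 36.9% of the 122 with a partner at least 2-fold lower. The median log2 score ratios were 0.012, 0.031 and 0.051 in the same order. Of all 4570 genes that did not pass, 45.9% had a lower score. In convergent pairs without overlap the shares were 50.0%, 43.6% and 48.6%, for a partner higher, within 2-fold and lower. Of the 22 with a partner at least 4-fold higher, 12 had a lower score (54.5%), and in convergent pairs without overlap it was 7 of 16 (43.8%). Among the strongest, YDR461C-A beside the a-factor gene MFA1 had a log2 score ratio at 0 min of -0.77, ARO9 beside YHR138C had -0.36, and TGS1 beside PRM4, whose own RNA was lower at 0 min, had 0.085.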

How the data were processed

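Reads were aligned by the authors to sacCer3/R64 with Bowtie 0.12.7, per the labels. The authors subsampled MNase-seq fragments within each length so that time points had equal numbers, then combined the replicates. The deposited entropy, nucleosome and promoter values and the deposited RNA values (named TPM) were all treated as a score. Positions of genes and PAS were used as deposited. How RNA reads were counted and replicates combined is not given in the sources used here, and depth per gene is unknown. The members and lists were chosen with earlier results of these data known. Values were computed with pandas 2.3.3, scipy 1.17.1 and numpy 2.4.6 under Python 3.11.15, and drawn with matplotlib 3.10.9. RNA was taken as log2(value + 1). The merged columns allow no test between time points over replicates, and counts and medians were set beside those of all genes or pairs. Named pairs were the 4 with the lowest and 4 with the highest r among those with means of at least 10 and ranges of at least 2-fold in both genes, the 3 longest overlaps and the first 6 with a marker gene, and the 3 factor genes with the largest range. Other genes were named after their values were seen. The coordinates of 5579 genes matched R64. The correlations and entropy differences were tested on simulated data. Alternatives were other time points, pseudocounts, scalings, windows, overlaps and Spearman's rho.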

Additional observations from a re-analysis of the deposited data

How the results depend on the processing

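Of 116 values under the alternatives that changed 1 setting, 87 stayed within the 95% binomial interval of the reported median or share or, where the scale changed, kept their sign. Without 0 min, the median RNA r was 0.19 and the share of pairs below -0.5 was 10.8%, and RNA with own entropy had a median r of 0.22. With each time point scaled to its upper quartile, the median RNA r was 0.018, the shares of pairs above 0.5 and below -0.5 were 20.0% and 20.4%, and 7.39% of members were higher at 0 min. This scaling shifted the median of all genes at 0 min by -0.074 on the log2 scale, and the share of higher among the calls was 45.4% (133 higher, 160 lower), against 51.7% as deposited. With Spearman's rho, 20.6% of pairs lay above 0.5 and 9.56% below -0.5, or 15.7% and 15.0% with the common course subtracted. With overlaps of at least 100 bases and the common course subtracted, the median RNA r was -0.070, and 25.4% of pairs lay below -0.5. The nucleosome score r turned to -0.0038 under the same setting. With such overlaps the first S phase rise, for which no course was subtracted, was 1.67. A pseudocount of 10 gave 5.89% of members higher and 5.17% lower at 0 min, and a range of 2-fold in 10.1%, against 6.14%, 5.21% and 12.1% of all genes. Counting 40 and 100 min as S phase gave entropy rises of 1.48 and 0.94. With the common course kept, the partners' r was 0.51 for entropy, 0.18 for the nucleosome score and 0.56 for the promoter score. A range of at least 4-fold gave r of 0.60 with own and 0.064 with the partner's entropy. A window of 50 bases held TATATA for 29.2% and AATAAA for 13.4% of members, against 26.9% and 12.8% of all genes.

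Some alternatives were chosen after seeing the data. These were pairs without a PAS at a coding end, pairs without overlapping coding regions, and each time point left out in turn. Pairs with neither PAS inside the partner's coding region were chosen in this way for partner levels only. With neither PAS inside the partner's coding region, the median log2 ratio of partner levels was 1.54, against 1.37 in the 900 pairs, and 17.7% of pairs differed by over 10-fold. Leaving out time points gave a median RNA r of 0.083 to 0.19, with 24.3% to 27.4% of pairs above 0.5 and 10.8% to 16.7% below -0.5. With the common course subtracted these were -0.027 to -0.0029, 19.6% to 20.9% and 19.7% to 22.6%. The first S phase rise was 1.29 without 30 min and 1.97 without 20 min, and was above 0 in 89.4% to 96.6% of members. The second was 0.90 without 90 min and 1.17 without 80 min, and was above 0 in 87.2% to 94.7%. No paired analysis was possible because replicate numbers are not kept in the merged columns, and leaving out a replicate was not run for the same reason.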

Other observations

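The genes that encode the machinery of 3′ end formation changed by less than 2-fold. All 28 listed genes of cleavage, polyadenylation and termination were in the table, and 9 of them were members of overlapping pairs. None of the 28 ranged over 2-fold after release, against 20% of all genes. None passed 2-fold in either direction at 0 min, against 10% of all genes higher and 8.25% lower. Their log2 ratios at 0 min ran from -0.65 (RAT1) to 0.47 (CLP1). Their median range of log2(value + 1) after release was 0.37, against 0.60 in all genes. The largest ranges were those of RNA15, a subunit of cleavage factor IA that binds the RNA near the cut, PTI1 and FIP1, each at 0.54.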
